A study of Mus musculus with 4 samples.

Results

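The 10 rapid-response regulators of transcription and growth followed in the ribosome-bound RNA of c-Fos-tagged hippocampal cells were Npas4, Ier2, Ier5, Btg2, Klf2, Klf4, Klf10, Maff, Atf3 and Gadd45b, taken by symbol from the gene count table. All 10 of them were found among its 28193 genes, and all 10 passed the filter on low counts that 22338 genes passed. They were chosen by name for their known roles, at a time when earlier results of these data were known.

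The assay, fosTRAP-seq, sequences RNA pulled down with a tagged ribosomal protein from cells whose c-Fos promoter was active during a labelling window. The deposited labels name male cFos-Cre:Ribotag mice and dorsal hippocampus. The methods of the study instead describe male C57BL/6J mice, 3 to 5 months old, with 2 viral vectors injected into dorsal CA1 and CA1 dissected for the pulldown. One vector carried a tamoxifen-inducible Cre under the c-Fos promoter and the other carried HA-tagged Rpl22 that Cre switches on. The sources differ on how the tag was delivered, and both describe a c-Fos-driven tag. All mice of both groups were sleep deprived for 5 h from lights on at day 0, with 4-hydroxytamoxifen given at ZT 2 (zeitgeber time, hours after lights on) to tag the active cells. At day 7 the SD group was sleep deprived again for 5 h by gentle handling and the NSD group was left undisturbed, and tissue was taken at ZT 5. Each group had 2 libraries, each a pool of 5 mice, and the labels give each NSD library and 1 SD library a shared batch number, 1 or 2, without saying what a batch was. No untagged RNA was analysed here, so the levels are not relative to whole tissue. No animal of either group went without the first sleep deprivation, so every comparison is of a second against no second sleep deprivation in cells tagged by the first.

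The libraries held 153511705 to 195910235 estimated counts. CA1 markers summed to 1200 to 1476 CPM (counts scaled to the size of the library) over the 4 libraries, beside 74.6 to 99.5 for dentate gyrus markers and 78.5 to 88.4 for CA3 and CA2 markers. Excitatory neuron markers summed to 6038 to 6463 CPM and interneuron markers to 927 to 1035. Markers of cells that are not neurons were also counted, with 3027 to 3608 CPM for astrocytes, of which Slc1a2 alone made up 2584 to 3147. Oligodendrocyte markers summed to 1635 to 1974 CPM, microglia markers to 90.9 to 118.8, endothelial markers to 43.7 to 97.3 and mural cell markers to 51.3 to 68.9. Of the marker genes listed, Iyd, a CA3 marker, did not pass the count filter, which any gene at 0 in a library fails. Since the RNA comes from many cells at once, fewer cells of a type and less RNA per cell cannot be told apart.

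Immediate early genes are transcribed within minutes of a stimulus from factors already present in the cell, without new protein synthesis. In neurons, calcium entry and growth factor signals act through CREB bound at cyclic AMP response elements (CRE) and through SRF with its ETS partners at CArG boxes. Many of the products are themselves regulators that shape a later wave of genes, while others curb growth, brake signalling or answer stress. The 10 genes here stand beside the Fos, Egr and Nr4a families in that response.

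None of the 10 genes was called between SD and NSD. A call needed a fold over 1.2 and an edgeR adjusted p below 0.05, from a quasi-likelihood fit with Benjamini-Hochberg adjustment over all genes tested. By this rule 0.770% of all genes tested were called higher in SD and 2.33% lower, so 0 calls among 10 genes is near that background. In a fit with the batch number as a replicate block, Ier5 was called higher and Npas4 lower, beside 2.99% of all genes called higher and 8.47% called lower. DESeq2 called none of the 10, beside 8.79% of all genes. At an unadjusted p below 0.05 the edgeR test had 3 of the 10 (Npas4, Ier2 and Ier5), beside 19.1% of all genes. The median log2 fold change of the 10 was 0.050, with a range of -0.46 to 0.72. It was -0.016 over all genes tested and 0.018 over protein-coding genes.

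For 2 of the 10, Ier2 and Ier5, the lower SD library exceeded the higher NSD library, beside 26.5% of protein-coding genes. The reverse held for another 2, Npas4 and Klf4, beside 20.0% of protein-coding genes. For the other 6 genes the groups overlapped. The summed level of the 10 was 107.6 and 124.9 CPM in NSD and 132.6 and 133.7 CPM in SD, and Ier5 made up most of the gap.

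**Figure D1:**
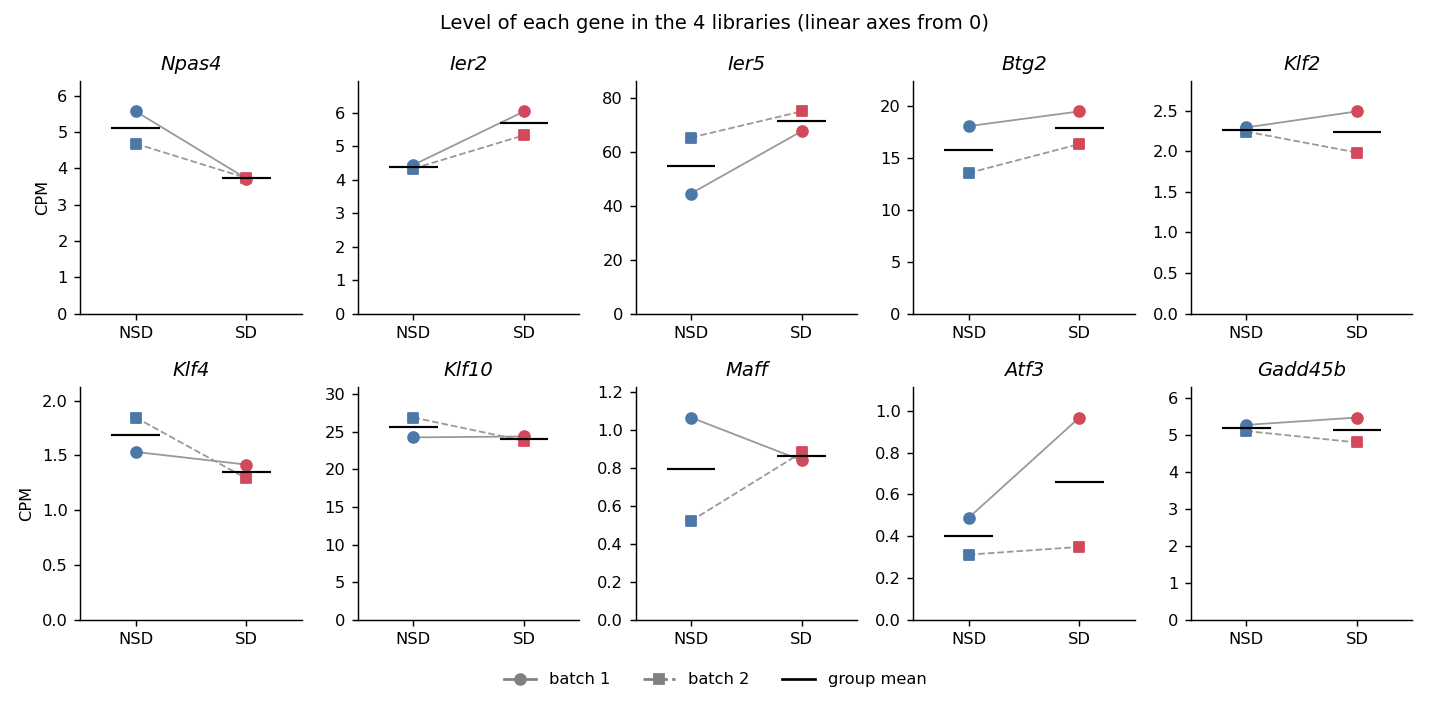
Level of each of the 10 regulators in CPM (vertical axes, each starting at 0) in the 2 NSD and 2 SD libraries, with circles for batch 1, squares for batch 2 and bars for group means. The SD points lie above both NSD points for Ier2 and Ier5, below both for Npas4 and Klf4, and overlap them for the other 6.

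The genes differed far more from each other in level than between the groups. On the scale of CPM per kilobase of exon, Ier5 stood highest with 13.6 and 20.0 in the NSD libraries and Atf3 lowest with 0.201 and 0.128. Between them the NSD means ran from Klf10 (6.11) and Btg2 (5.77) through Gadd45b (3.27), Ier2 (2.88), Npas4 (1.24), Klf2 (1.14) and Klf4 (0.548) to Maff (0.250). Some pairs of neighbours in that order were not separated in every library, namely Klf10 and Btg2, Gadd45b and Ier2, Npas4 and Klf2, and Maff and Atf3. The SD means ran from 21.8 for Ier5 to 0.270 for Atf3 on the same scale. The lowest 2 genes rested on few counts, 49 to 177 per library, so their counting error alone reached 10.4% of the mean for Atf3 against 0.952% for Ier5.

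Npas4 encodes a neuron-enriched bHLH-PAS factor that is induced by calcium entry and drives genes for inhibitory synapses and for Bdnf. It measured 5.57 and 4.68 CPM in NSD and 3.72 and 3.73 CPM in SD (5.12 ± 0.628 against 3.73 ± 0.0110, SD, n = 2). The 2 SD libraries were nearly equal and both lay below the lower NSD library. The log2 fold change was -0.46 ± 0.16 (SE), a fold of 0.727 with a 95% interval of 0.564 to 0.938, and the edgeR adjusted p was 0.160. With the replicate block the log2 fold change was -0.45 and the adjusted p 0.0490, which passes the threshold narrowly. SD was lower within each batch, by log2 differences of -0.58 in batch 1 and -0.32 in batch 2. DESeq2 gave an adjusted p of 0.113. Without NSD 1 the log2 fold change was -0.30, with an edgeR adjusted p of 0.584. The gene (ENSMUSG00000045903) lies on the minus strand of chromosome 19 at 5034383 to 5040344 (GRCm39).

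Of the 6 CA1 markers, 4 had log2 fold changes below 0. The SD pair lay entirely below the NSD pair for 3 of the 6, beside 20.0% of protein-coding genes. It lay entirely above for 1, Mpped1, beside 26.5%. The median of the 6 was -0.27 on the log2 scale, and -0.063 without NSD 2. EdgeR called 0 of the 6 without the replicate block (all genes 2.33% lower) and 3 lower with it (all genes 8.47%). DESeq2 called 3 lower (all genes 8.79% in either direction) and 3 had an unadjusted p below 0.05 (all genes 19.1%). The summed level of the 6 was 1300 and 1476 CPM in NSD against 1200 and 1329 CPM in SD, so the sums overlapped. Excitatory neuron markers in general had a median of -0.03, with 2 of 7 called lower with the block (all genes 8.47%). The part of these markers in the Npas4 value was not tested. Among the listed rapid-response genes that are not members, the 3 whose profile over the 4 libraries was nearest to that of Npas4 were Cebpd, Ier3 and Amigo3. Their root mean square distances were 0.13, 0.19 and 0.19 on the log2 scale of levels centred per gene.

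The promoter of Npas4 is shown because CREB is a known route to this gene and 2 CRE half-sites stand close together in it. The sequence is from RefSeq (GRCm38.p6), chr19:4989922-4990221 on the minus strand, from 250 bases before the start of the gene to 50 bases after it. The capitals mark the half-site TGACG, searched on both strands and therefore also seen as CGTCA, at positions -179 and -169 from the start site.
Npas4: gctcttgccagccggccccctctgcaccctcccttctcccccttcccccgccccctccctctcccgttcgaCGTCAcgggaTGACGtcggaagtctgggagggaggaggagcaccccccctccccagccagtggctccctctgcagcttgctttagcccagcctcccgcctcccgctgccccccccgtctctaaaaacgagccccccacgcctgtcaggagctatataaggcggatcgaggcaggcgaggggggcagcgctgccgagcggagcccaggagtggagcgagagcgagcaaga

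Known targets of Npas4 were taken as a list of 5 genes. EdgeR called 0 of them in either direction (all genes 0.770% higher and 2.33% lower). DESeq2 called 1 lower (all genes 8.79% in either direction) and 1 had an unadjusted p below 0.05 (all genes 19.1%). The 1 gene was Nptx2 each time. Nptx2, a secreted organiser of excitatory synapses onto interneurons, measured 25.6 and 33.1 CPM in NSD and 20.7 and 23.1 CPM in SD. Its log2 fold change was -0.42 with an edgeR adjusted p of 0.101. With the replicate block (all genes 8.47% lower) it was called lower, with an edgeR adjusted p of 0.00246. Bdnf, the activity-dependent neurotrophin, had a log2 fold change of -0.05, as did Nrn1. The kinase gene Plk2 had -0.22 and Syt10, a calcium sensor of vesicle release, had 0.03. The median of the 5 was -0.05, and between -0.12 and -0.02 when 1 library was left out.

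Ier5 encodes a nuclear growth factor response protein known to act on the heat shock factor HSF1 through a phosphatase. It measured 44.6 and 65.4 CPM in NSD and 67.8 and 75.1 CPM in SD (55.0 ± 14.7 against 71.5 ± 5.19, SD, n = 2). Library NSD 1 stood well below the other 3, while NSD 2 lay close under SD 1. The log2 fold change was 0.38 ± 0.15, a fold of 1.30 with a 95% interval of 1.02 to 1.65, and the edgeR adjusted p was 0.223. With the replicate block the log2 fold change was 0.40 ± 0.079 and the adjusted p 0.00453. SD was higher within each batch, by a log2 difference of 0.60 in batch 1 and 0.20 in batch 2, and the gap between these 2 values is wider than the standard error of that fit. The size of the difference rested on the NSD libraries, at 0.16 without NSD 1 and 0.68 without NSD 2. Without NSD 2 or without SD 1 the edgeR test called Ier5 higher (adjusted p = 0.0108 and 0.00215), with the lone library assumed to vary like the other group. The gene (ENSMUSG00000056708) lies on the minus strand of chromosome 1 at 154972107 to 154975382.

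The promoter of Ier5 is set beside that of Npas4 because both genes were called with the replicate block, in opposite directions. It lies at chr1:155099587-155099886 on the minus strand (RefSeq, GRCm38.p6), with the same span around the start. Nothing is in capitals, since none of the letters searched were found in this window.
Ier5: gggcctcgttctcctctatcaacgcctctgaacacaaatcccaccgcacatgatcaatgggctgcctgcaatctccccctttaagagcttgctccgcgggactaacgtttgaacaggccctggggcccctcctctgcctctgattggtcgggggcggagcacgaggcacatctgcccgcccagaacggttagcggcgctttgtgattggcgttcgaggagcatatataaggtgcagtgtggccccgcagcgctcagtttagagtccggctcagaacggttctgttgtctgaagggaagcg

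Ier2, a nuclear immediate early response protein linked to cell motility, measured 4.44 and 4.33 CPM in NSD and 6.04 and 5.33 CPM in SD (4.38 ± 0.0784 against 5.68 ± 0.503, SD, n = 2). The NSD libraries were close together and both SD libraries stood above them. The log2 fold change was 0.37 ± 0.15, a fold of 1.30 with a 95% interval of 1.03 to 1.64. The edgeR adjusted p was 0.210 without and 0.0806 with the replicate block, so the difference did not pass the threshold in either fit. Within batches it was 0.44 and 0.30 on the log2 scale. The gene (ENSMUSG00000053560) is a short locus on the minus strand of chromosome 8 at 85387960 to 85389483.

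**Figure D2:**
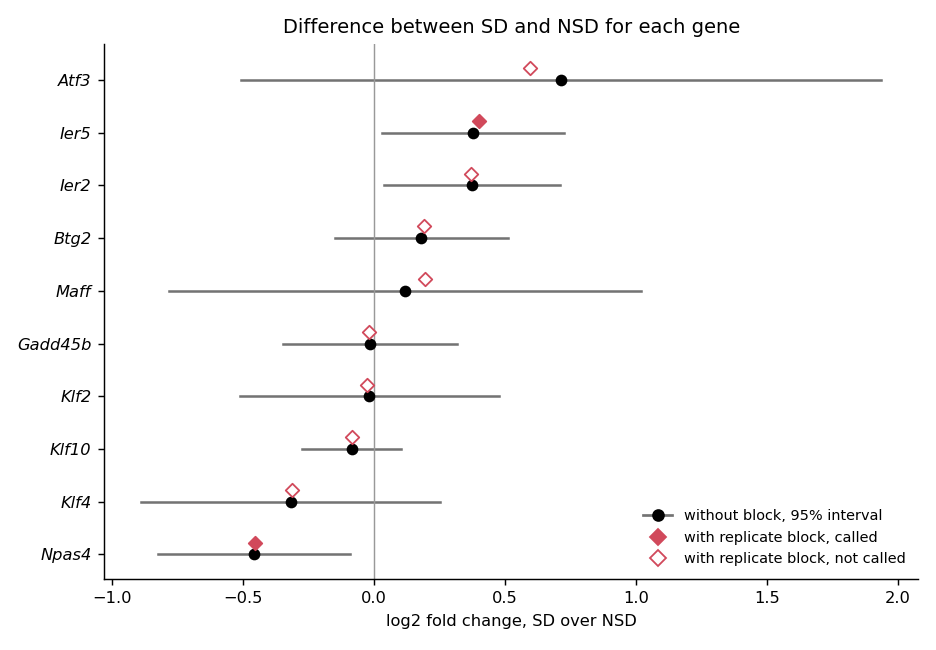
Log2 fold change of SD over NSD for the 10 regulators (horizontal axis), with 95% intervals as bars from the edgeR fit. The intervals of Npas4, Ier2 and Ier5 do not include 0, those of the other 7 do, and Atf3 and Maff have the widest intervals.

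Btg2 belongs to the BTG and TOB family of antiproliferative proteins that recruit the CCR4-NOT deadenylase to messenger RNA. It measured 18.1 and 13.6 CPM in NSD and 19.5 and 16.4 CPM in SD, and the groups overlapped. In both groups the batch 1 library was the higher. SD over NSD gave a log2 fold change of 0.18 ± 0.14 with a 95% interval of -0.15 to 0.51 (edgeR adjusted p = 0.581), and the within-batch differences were 0.11 and 0.27. Without NSD 2 the fold change was -0.012. The position of Btg2 (ENSMUSG00000020423) is chromosome 1, 134002908 to 134006858, minus strand, and 120 exon bases lie opposite the antisense gene Gm31974. Whether the counting used strand is not given in the sources used here.

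Gadd45b encodes a stress and growth arrest protein that in neurons is linked to activity-dependent DNA demethylation. It measured 5.28 and 5.11 CPM in NSD and 5.48 and 4.80 CPM in SD, so both NSD libraries fell between the SD libraries. The fold was 0.989 with a 95% interval of 0.785 to 1.25, and the edgeR adjusted p was 0.974. The sign of so small a value changed with the normalization. The gene (ENSMUSG00000015312) lies on the plus strand of chromosome 10 at 80765907 to 80768038.

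The Klf genes encode zinc finger factors that bind GC-rich promoter elements. Klf10, a TGF-beta-inducible repressor, was the best measured of the 3, with 24.3 and 26.9 CPM in NSD and 24.4 and 23.8 CPM in SD. Its fold was 0.942, and the 95% interval of 0.826 to 1.07 was the narrowest of the 10 (edgeR adjusted p = 0.660). Klf2, known for its role in quiescent endothelium, measured 2.29 and 2.24 CPM in NSD and 2.49 and 1.98 CPM in SD. The SD libraries lay on either side of the NSD pair, and the fold was 0.987 with an interval of 0.700 to 1.39 (edgeR adjusted p = 0.977).

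Klf4, a regulator of differentiation and one of the reprogramming factors, measured 1.53 and 1.85 CPM in NSD and 1.42 and 1.29 CPM in SD. Each SD library was under each NSD library, by little in batch 1 (log2 difference -0.11) and by more in batch 2 (-0.51). The log2 fold change was -0.32 ± 0.25 with a 95% interval of -0.89 to 0.25, and the edgeR adjusted p was 0.568 without and 0.452 with the replicate block. Klf4 (ENSMUSG00000003032) lies at 55527143 to 55532466 on chromosome 4 and Klf10 (ENSMUSG00000037465) at 38291707 to 38300950 on chromosome 15, both on the minus strand. Klf2 (ENSMUSG00000055148) lies on the plus strand of chromosome 8 at 73072877 to 73075500, opposite Eps15l1 but with 0 shared exon bases. A 62-base exon stretch of Klf10 lies opposite Gm35248, whose mean count was 0.437% of that of Klf10.

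Endothelium also expresses Klf2 and Klf4, and markers of blood vessel cells lay lower in SD without passing the edgeR test. All 16 endothelial markers had a log2 fold change below 0 and in 11 of the 16 the groups did not overlap, with SD the lower. Their median was -0.75, with 0 called by edgeR, 9 called lower with the replicate block and 6 called lower by DESeq2, and 10 had an unadjusted p below 0.05. Over the whole table, 20.0% of protein-coding genes had SD lower without overlap, and 8.47% of all genes were called lower with the block. In either direction, DESeq2 called 8.79% of all genes (1294 lower and 669 higher), and 19.1% were at that p. The summed level of the endothelial markers was 72.5 and 97.3 CPM in NSD and 61.6 and 43.7 CPM in SD. Klf4 followed that order of libraries and Klf2 did not. The 8 markers of mural cells, the contractile cells of the vessel wall, had a median of -0.30 (-0.16 without SD 2), with 0 called by edgeR or DESeq2, 1 called lower with the block and 1 at an unadjusted p below 0.05. The part of these markers in the Klf4 value was not tested.

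**Figure D3:**
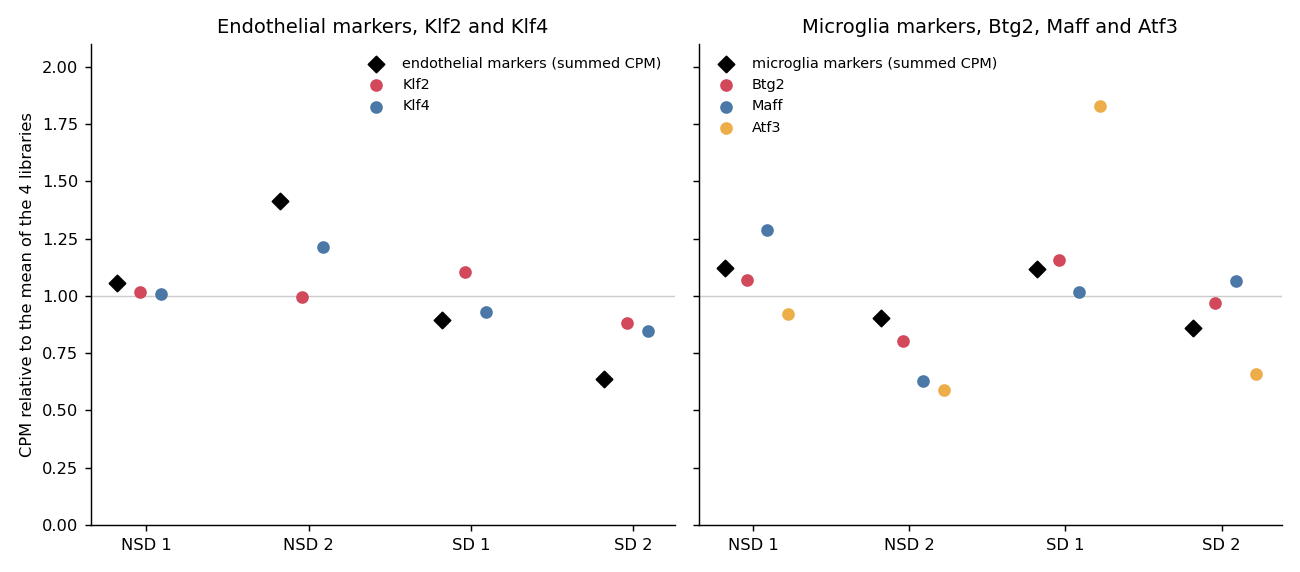
Summed CPM of the endothelial markers with Klf2 and Klf4 (left) and of the microglia markers with Btg2, Maff and Atf3 (right), each divided by its own mean over the 4 libraries (vertical axis). Endothelial markers and Klf4 were highest in NSD 2 and lowest in SD 2, and microglia markers were higher in the batch 1 library of each group, as were Btg2 and Atf3.

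Maff and Atf3 are basic leucine zipper factors. Maff is a small Maf protein that has no activation domain and pairs with NRF and Bach factors. It measured 1.07 and 0.522 CPM in NSD and 0.841 and 0.883 CPM in SD. The SD pair fell between the NSD libraries, which differed from each other more than the groups did. The log2 difference was -0.34 in batch 1 and 0.75 in batch 2, and the pooled fold change was 0.12 ± 0.39 (edgeR adjusted p = 0.920). The gene (ENSMUSG00000042622) lies on the plus strand of chromosome 15 at 79230821 to 79243276, with 416 exon bases opposite Gm56727 and 92 opposite Gm62234.

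Atf3 is a stress-induced member of the ATF and CREB family that represses many immediate early promoters. It measured 0.489 and 0.312 CPM in NSD and 0.968 and 0.349 CPM in SD. Library SD 1 alone stood high, and SD 2 lay between the NSD libraries. Its log2 fold change was therefore the largest of the 10 and also the least certain, 0.72 ± 0.53, a fold of 1.64 with a 95% interval of 0.704 to 3.83 (edgeR adjusted p = 0.547). Without SD 1 it was -0.20. The gene (ENSMUSG00000026628) lies on the minus strand of chromosome 1 at 190902493 to 190950236. Microglia also express Atf3, Maff and Btg2. Of 10 microglia markers, 0 were called in either edgeR fit or by DESeq2 (all genes 8.79% by DESeq2). At an unadjusted p below 0.05 there were 0 (all genes 19.1%). The batch 1 library was the higher in both groups for 9 of the 10 markers, beside 28.9% of protein-coding genes. Their summed level was 118.8 and 95.5 CPM in NSD and 118.3 and 90.9 CPM in SD. The part of these markers in the Atf3, Maff and Btg2 values was not tested.

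Promoter windows of the same span were held by RefSeq for 8 of the 10 genes, and Maff had 3 of them. Ier2 and Klf10 had none. The full CRE, TGACGTCA, was in 2 of the 8 genes and in 1.79% of all 32851 promoters of this length. Its half-site TGACG, which a full CRE also contains, was in 6 of the 8 and in 20.8% of all promoters. The 8 are counted by gene, with a match in any window of the gene, while the shares of all promoters are by single window. The CArG box (in 1.63% of all promoters) and the AP-1 site TGANTCA (7.81%) were in none of the 8, and TATAAA (13.6%) was in Gadd45b alone. All were searched on both strands, and a match is only a match of letters. One stretch per gene is shown with the matched letters in capitals, so that the full CRE of Btg2 and Maff can be set against the half-sites. Each line gives bases from RefSeq (GRCm38.p6) in the direction of the gene, and the matches begin at -166 in Btg2, -29 in the Maff window at chr15:79347270-79347569, -7 in Atf3, -232 in Klf4, -241 in Klf2 and -46 in Gadd45b. Another Maff window, chr15:79348152-79348451, held a further half-site at -122 that is not printed.
Btg2: tcccaataaTGACGTCAgtgagcgat
Maff: ctggggcggTGACGTCActgcatgac
Atf3: atagcattaCGTCAgcctgggat
Klf4: cctggctggCGTCAcggcctggc
Klf2: ctggtttgtTGACGccgtcgcca
Gadd45b: gggaagtcaTATAAAccgctcgca

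Whether the direction went with these letters was not tested. Among the genes with a half-site, Npas4 and Klf4 had the SD pair entirely below the NSD pair and Btg2, Klf2, Maff and Atf3 overlapped. Ier5, with no match, had the SD pair entirely above, and the groups overlapped for Gadd45b, which had TATAAA and no half-site.

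Relatives in the same families were tested to place the 10 among their kin. Of the 35 listed, 31 passed the filter on low counts, and 0 were called by edgeR in either direction, with 4 at an unadjusted p below 0.05 (all genes 19.1%). DESeq2 called 2 higher (all genes 8.79% in either direction). With the replicate block (all genes 2.99% higher) the same 2 were called higher, Klf12 and Atf4. Klf12, a repressor, measured 72.8 and 61.2 CPM in NSD and 85.7 and 78.7 CPM in SD (a log2 difference of 0.29, with an adjusted p by edgeR of 0.124 unblocked and 0.00380 blocked). The other Klf relatives went down to -0.13 in Klf5, and the median of the 11 tested was -0.0016. Klf9, a stress hormone-induced family member, measured 233.7 and 251.4 CPM in NSD and 240.1 and 244.6 CPM in SD.

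In the BTG and TOB family the 4 relatives of Btg2 ran from 0.02 in Tob1 to 0.30 in Btg3 on the log2 scale, with none called in either fit. Gadd45a had a log2 fold change of -0.20 and Gadd45g 0.24, both at mean levels near 1.3 CPM in NSD and neither called. Mafg, a small Maf protein like Maff, had a log2 fold change of 0.21 and was not called. Npas1, Npas2 and Npas3 lay between -0.10 and 0.02, and Ier3 and Ier5l at -0.19 and 0.02. The family median of all 31 was 0.02.

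Genes known to switch the 10 on were listed as 22 kinases and factors, and 0 were called by edgeR, with 7 at an unadjusted p below 0.05 (all genes 19.1%). DESeq2 called Elk1 and Elk4 higher (all genes 8.79% in either direction). The block fit called Elk4 higher and Elk3 lower (all genes 2.99% and 8.47%). All 3 are ETS partners of SRF. Elk4 measured 63.4 and 61.2 CPM in NSD and 83.5 and 71.3 CPM in SD, 0.31 on the log2 scale, with an edgeR adjusted p of 0.0865 unblocked and 0.00421 blocked. Elk3, which endothelium also expresses, measured 5.31 and 4.05 CPM in NSD and 3.38 and 2.99 CPM in SD, -0.55 on the log2 scale, with an edgeR adjusted p of 0.149 unblocked and 0.0257 blocked. Srf itself measured 49.7 and 47.9 CPM in NSD and 56.4 and 57.7 CPM in SD (log2 fold change 0.23, edgeR adjusted p = 0.101). It passed p with the block (0.0210), but its fold was below the required 1.2.

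Dimer partners and cofactors of the 10 numbered 15, with 0 called in either edgeR fit or by DESeq2, 5 at an unadjusted p below 0.05 (all genes 19.1%) and a median of 0.02. Arnt2, a dimer partner of Npas4, measured 441.6 and 445.0 CPM in NSD and 497.9 and 487.9 CPM in SD, and the paralog Arnt measured 23.6 ± 1.98 CPM in NSD and 20.5 ± 0.177 CPM in SD. Around Atf3, 8 genes of the integrated stress response had 0 calls by edgeR and 1 gene at an unadjusted p below 0.05 (all genes 19.1%). With the block (all genes 2.99% higher) and by DESeq2 (8.79% in either direction) 1 of the 8 was called higher. This was Atf4, the factor that stress translation turns on, with 85.8 and 92.4 CPM in NSD and 107.4 and 107.9 CPM in SD. Its log2 fold change was 0.27, with an edgeR adjusted p of 0.0698 unblocked and 0.00557 blocked. Ddit3, its proapoptotic target, had 5.90 and 5.93 CPM in NSD and 6.54 and 5.29 CPM in SD.

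The other 48 listed rapid-response genes, among them the Fos, Egr, Nr4a and Dusp families, had 6 called higher and 0 lower by edgeR (all genes 0.770% and 2.33%). These were Arc, Dusp5, Trib1, Sik1, Fosl2 and Nr4a1, with log2 fold changes from 0.40 to 0.91. The regulatory lists hold no other calls by edgeR. Over all of them the count of 6 became 4 without the count filter or with protein-coding genes only. It became 0 with filterByExpr, 18 with DESeq2 and 16 with the replicate block. With the replicate block 13 of the 48 were called higher and 2 lower (all genes 2.99% and 8.47%). The 13 were the 6 above and Fosb, Egr1, Egr4, Homer1, Dusp1, Ccn2 and Nr4a2, and the 2 were Cebpd and Nptx2. DESeq2 called 14 higher, the same 13 and Per1, and 1 lower, Nptx2 (all genes 8.79% in either direction). At an unadjusted p below 0.05 were 22 of the 48 (all genes 19.1%). The median log2 fold change of the 48 was 0.17, against 0.050 for the 10 regulators. The SD pair lay entirely above the NSD pair for 26 of the 48 against 2 of the 10, beside 26.5% of protein-coding genes. It lay entirely below for 5 of the 48 against 2 of the 10, beside 20.0%. The difference between the 2 lists was not tested. The profile of the mean of the 10 was nearest to that of Mcl1, with a root mean square distance of 0.035 on the log2 scale, then Jun (0.086) and Inhba (0.095). Fos, whose promoter drove the tag, measured 271.1 and 513.3 CPM in NSD and 336.0 and 375.1 CPM in SD and was not called (log2 fold change -0.14).

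**Figure D4:**
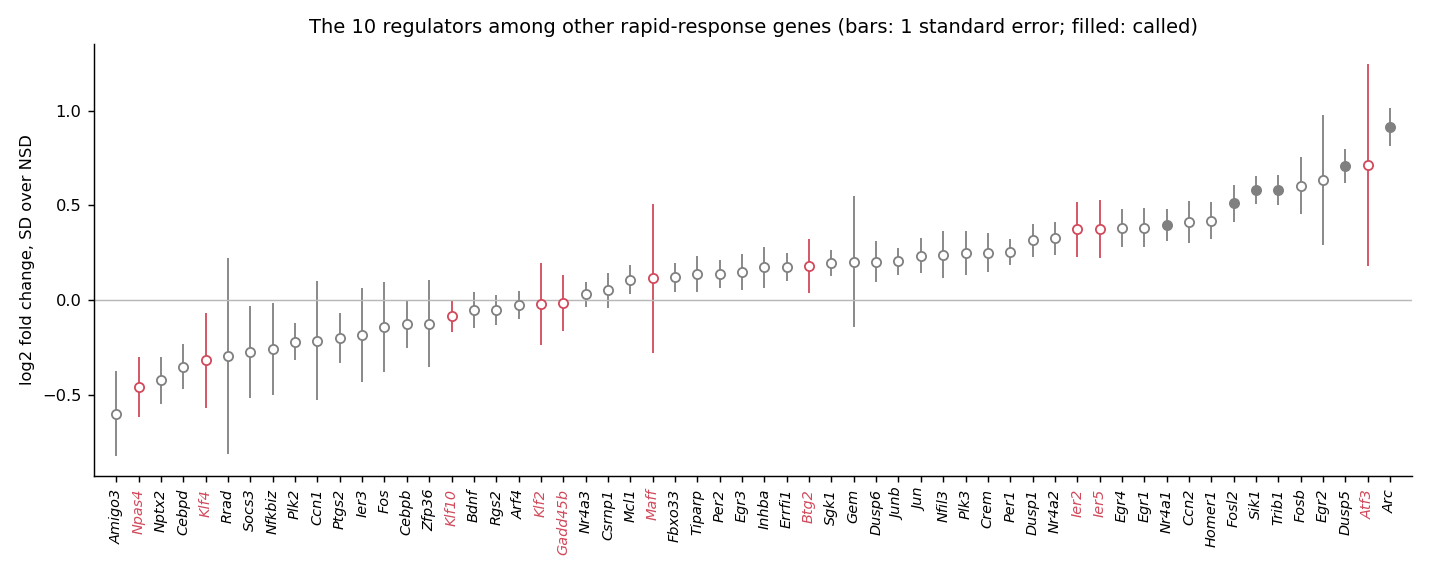
Log2 fold change of SD over NSD for the 10 regulators (red) placed among the 48 other rapid-response genes (grey), in rank order. The 10 spread from -0.46 in Npas4 to 0.72 in Atf3, within the range of the other genes.

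Within batches, 4 of the 10 regulators were higher in SD in both batches (Ier2, Ier5, Btg2 and Atf3), beside 36.6% of protein-coding genes. Another 2 were lower in both (Npas4 and Klf4), beside 29.2%. Klf2, Klf10, Maff and Gadd45b changed sign between the batches. Each batch holds 1 library per group, so these differences carry no error of their own.

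**Figure D5:**
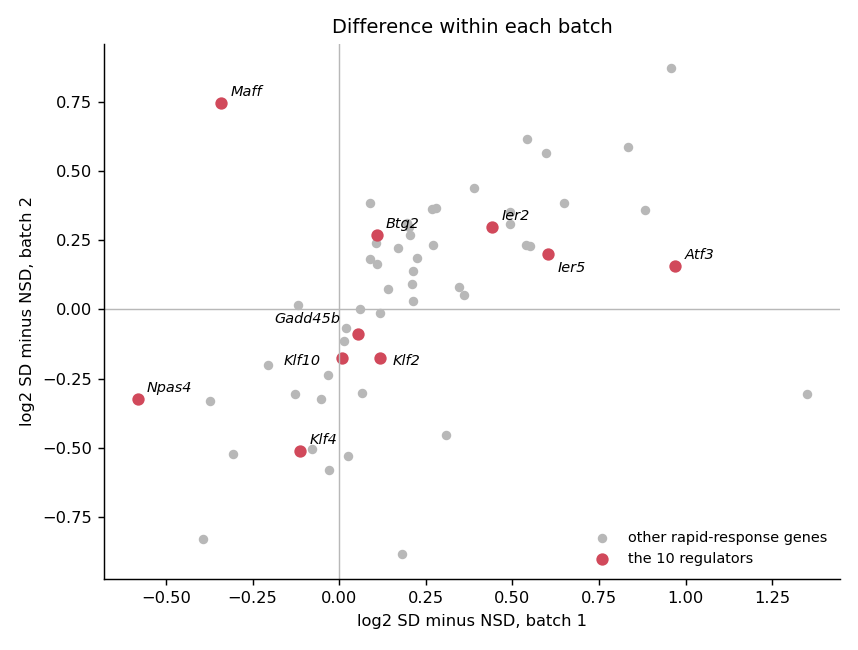
Log2 difference of SD minus NSD in batch 1 (horizontal axis) against batch 2 (vertical axis) for the 10 regulators (red, named) and the 48 other rapid-response genes (grey). Ier2, Ier5, Btg2 and Atf3 lie in the upper right, Npas4 and Klf4 in the lower left, and Maff goes from -0.34 in batch 1 to 0.75 in batch 2.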

How the data were processed

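Ribosome-associated RNA was affinity-purified and 4 libraries were prepared with a stranded total RNA kit after ribosomal RNA depletion. Per the paper's methods and labels, the authors aligned 150-base reads with STAR 2.7.8a to mm39 and quantified genes in Partek Flow with an expectation-maximization step against Ensembl release 110. The deposited values are therefore estimated counts, many of them not whole, and they were rounded to whole numbers here. Reads that fit several genes were shared out by that step, which can shift counts among near-identical genes. Each column was matched to its library by its label.

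Genes with over 5 counts in every library were kept (22338 of 28193), as in the study. Libraries were scaled by TMM, and SD was compared with NSD by the quasi-likelihood test of edgeR 4.0.16 in R 4.3.3, with Benjamini-Hochberg adjustment over all genes tested. The study's tool, DESeq2 1.42.0, was run as an alternative. Standard errors and 95% intervals were computed from the same fit. CPM is TMM-scaled, and CPM per kilobase used exons of GENCODE M39 cut to the span in the table. The labels give 1 batch number to an NSD and an SD library, so the batch entered a second fit as a replicate block. The correlation of same-numbered libraries' deviations from the group means was 0.178. Replicates differed far more than counting error (chi-square per degree of freedom 80.6 in NSD and 44.6 in SD). The labels call them biological replicates. Intervals of counting error cover counting only.

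Genes named were the 10 members with values in every library, then members of the regulatory lists that were called in a fit, their family relatives, Fos, and the nearest 3 by profile. Cell type markers called in a fit were counted but not named. The other Npas4 targets, Srf, Elk1, Arnt, Arnt2, Ddit3, Egr2, Mpped1, Iyd and Slc1a2 were added after their values were seen. The members, lists and tests were chosen with earlier results of these data known. The script was tested on simulated data first. Promoters and motifs came from RefSeq tables on GRCm38.p6, while gene positions are those of the table on GRCm39, given with an inclusive end.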

Additional observations from a re-analysis of the deposited data

How the results depend on the processing

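With 2 libraries per group, a difference whose interval includes 0 could not be told from the spread between libraries, and Maff and Atf3 were further limited by counts. Of the 10 genes, Npas4, Ier2, Ier5, Btg2, Klf4 and Atf3 kept their direction under every alternative that used all 4 libraries and within each batch. The log2 fold change of Klf2 turned to 0.0023 with DESeq2, 0.0025 with DESeq2 size factors, 0.0079 without the count filter and 0.12 in batch 1 alone. That of Gadd45b turned to 0.0064, 0.0065, 0.012 and 0.053 under the same 4. In batch 1 alone Klf10 had 0.0074 and Maff -0.34. With the replicate block 1 of the 10 genes was called higher (Ier5) and 1 lower (Npas4), and it changed no other call among the 10. Over all genes, 172 were called higher and 520 lower by edgeR, against 669 and 1294 with DESeq2, 50 and 80 without the filter, 1 and 0 with filterByExpr, 51 and 39 with protein-coding genes only, and 668 and 1891 with the replicate block. The cause of these differences was not tested. Among the genes of the regulatory lists, 6 were called higher and 0 lower, against 18 and 1 with DESeq2, 0 higher with filterByExpr, and 16 and 3 with the block. Leaving out 1 library in turn gave 144 to 321 genes higher and 87 to 1953 lower, 0 to 1 of the 10 called higher, a median of the 10 from -0.11 to 0.12, and 5 to 13 list genes higher and 0 to 1 lower. The same step moved the log2 fold change of Atf3 from -0.20 to 1.29, Btg2 from -0.012 to 0.43, Gadd45b from -0.11 to 0.095, Klf2 from -0.19 to 0.15 and Maff from -0.31 to 0.75. Without changing sign, Npas4 ran from -0.58 to -0.30, Ier2 from 0.28 to 0.48, Klf4 from -0.42 to -0.18 and Klf10 from -0.13 to -0.0093.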

Other observations

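Atf3 was not alone in standing high in library SD 1. Egr2, a zinc finger immediate early gene singled out after its values were seen, measured 3.46 and 4.65 CPM in NSD and 8.84 and 3.76 CPM in SD, with log2 differences of 1.35 in batch 1 and -0.31 in batch 2. Its pooled log2 fold change was 0.63 with an edgeR adjusted p of 0.379.

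The batch 1 library was the higher in both groups for 5 of the 10 regulators, and for 28.9% of protein-coding genes tested. The same held for 9 of 11 oligodendrocyte markers, 9 of 10 microglia markers and 4 of 8 astrocyte markers. It held for 3 of 8 mural cell markers and 1 of 16 endothelial markers. Among neuron lists it held for 7 of 9 interneuron markers, 4 of 5 dentate gyrus markers and 0 of 7 excitatory neuron markers. The CA1 list had 0 of 6 and the CA3 and CA2 list 1 of 6.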
